A study of Mus musculus with 15 samples.

Results

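Lesions of GZ21T-treated mice were compared with skin that had received no ultraviolet light, to ask which genes of a treated lesion still differed from unexposed skin. All libraries are of female SKH1 mice (hairless, and prone to tumours under ultraviolet light). Their age is given as 6 to 8 weeks. That is shorter than the 10 weeks of ultraviolet light, so it is not the age at the end of them. For 10 weeks the mice were given ultraviolet B (500 J/m2, 5 days per week), and 0.25 g of cream went on the skin on 5 days of each week. The lesions are actinic keratoses, the keratinocyte growths that precede squamous cell carcinoma. The labels give 5 groups of 3 libraries each, and this comparison takes 6 of the 15 libraries. These are GZ21T-treated lesional skin, and non-UV-exposed skin of mice given placebo cream. GZ21T is named in the labels as a topical cream whose make-up they do not give. The other 3 groups, lesional, perilesional and nonlesional skin of placebo mice, serve only to place the values. The titles number the placebo libraries 1 to 3 at each of the 4 sites, so these sites, unexposed and lesional skin included, may come from the same mice. Whether each library of a group came from its own animal is not stated, and p-values then cover only the spread among libraries, part of which may be technical.

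The compared groups differ in ultraviolet exposure, in the presence of a lesion and in the cream, and these cannot be told apart within the comparison. The file headers name no unexposed group. Their reference is called back. It was matched to the non-UV-exposed libraries because this is the one group left over once the other 4 are found in the headers, and every value over unexposed skin rests on this. If it is so, the body site and the exposure cannot be told apart either. No table of this comparison was among the files. Its log2 fold change was computed as the deposited log2 fold change of placebo lesions over unexposed skin minus that of placebo lesions over GZ21T lesions. Its standard error (SE) is the larger of the 2 deposited SEs. The tables hold fold changes and test results but no values per library, so each gene has a fold change with its SE from 3 libraries a group. The depth is unknown. How many libraries show a change cannot be given. In whole skin, fewer cells of a type and less RNA per cell cannot be told apart.

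The epidermis renews itself from basal keratinocytes that divide, move up, switch keratins and end as dead cornified cells sealed by cross-linked envelope proteins and lipids. Injured or irradiated epidermis replaces its usual suprabasal keratins in part with the stress keratins. Keratinocytes also answer nucleic acids and interferon by switching on antiviral genes. In cornified envelope genes the AP-1 factors, dimers of Fos and Jun proteins, are known regulators.

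Of 10899 genes with an adjusted p-value in both parent tables, 500 differed between GZ21T lesions and unexposed skin at an adjusted p under 0.05 (4.59% of genes tested). Of these 281 were higher (2.58%) and 219 lower (2.01%) in the lesions. On the same genes the authors' deposited table of placebo lesions over unexposed skin called 2451 (22.5%), with 1319 higher (12.1%) and 1132 lower (10.4%). The median absolute log2 fold change over all tested genes was 0.236 for GZ21T lesions and 0.418 for placebo lesions in the authors' deposited table. The medians of the signed values were -0.02 and 0.05, the latter from the authors' deposited table. Both comparisons use the same unexposed libraries. The difference between them is tested in the authors' deposited table of the 2 kinds of lesion, which called 393 of these genes (3.61%), with 143 higher (1.31%) and 250 lower (2.29%) under GZ21T. The median of the signed GZ21T over placebo values was -0.06 in the authors' deposited table. In its full table of 15201 genes the placebo comparison called 2785 (18.3%), by the authors' deposited table. Adding the 2 squared SEs as if the tables had independent errors, although both hold the placebo lesions, gave a larger SE under which 66 genes passed. Rescaling to the spread of the genes themselves left 141 genes for GZ21T lesions, and 11 for placebo lesions and 0 for the 2 kinds of lesion from the authors' deposited tables. The order of the GZ21T and placebo counts is thus turned by that setting, and the last comparison has 2804 genes at an unadjusted p under 0.05 by the authors' DESeq2 test.

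The genes farthest from unexposed skin were ranked among called genes with a log2 fold change of at most 15 in size and values shared with no other gene. That leaves out Hba-a2, a haemoglobin gene called lower, and the identical pair Sprr2a1 and Sprr2a2. The highest log2 fold change, 10.06 ± 1.5 (SE, adjusted p = 1.5e-08), was that of Chil4, a chitinase-like protein seen in type 2 inflammation. Chil4 lies on chromosome 3 of GRCm38, from 106201490 to 106219507, on the minus strand. Krt6b, a stress keratin on chromosome 15 from 101676023 to 101680287 (minus strand), stood at 6.11 ± 0.78 (adjusted p = 9.3e-12). Its partner Krt16, on chromosome 11 from 100246091 to 100248902 (minus strand), stood at 4.18 ± 0.45 (adjusted p = 8.3e-17). The other genes among the 10 farthest above by this ranking were Stfa2, Rptn, Tubb3, Pla2g4d, Serpina3j, Oas2 and Krt6a, between 3.72 and 5.54. Among the 10 farthest below were Krt77, Fosb, Skint5, Skint7, Cyp2w1, Slc6a2, Bmp3, Atf3 and Mmp12, between -5.98 and -2.93. Krt77, a keratin of the suprabasal layers and sweat ducts, was the lowest of those ranked, at -5.98 ± 1.10 (adjusted p = 1.6e-05).

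**Figure D1:**
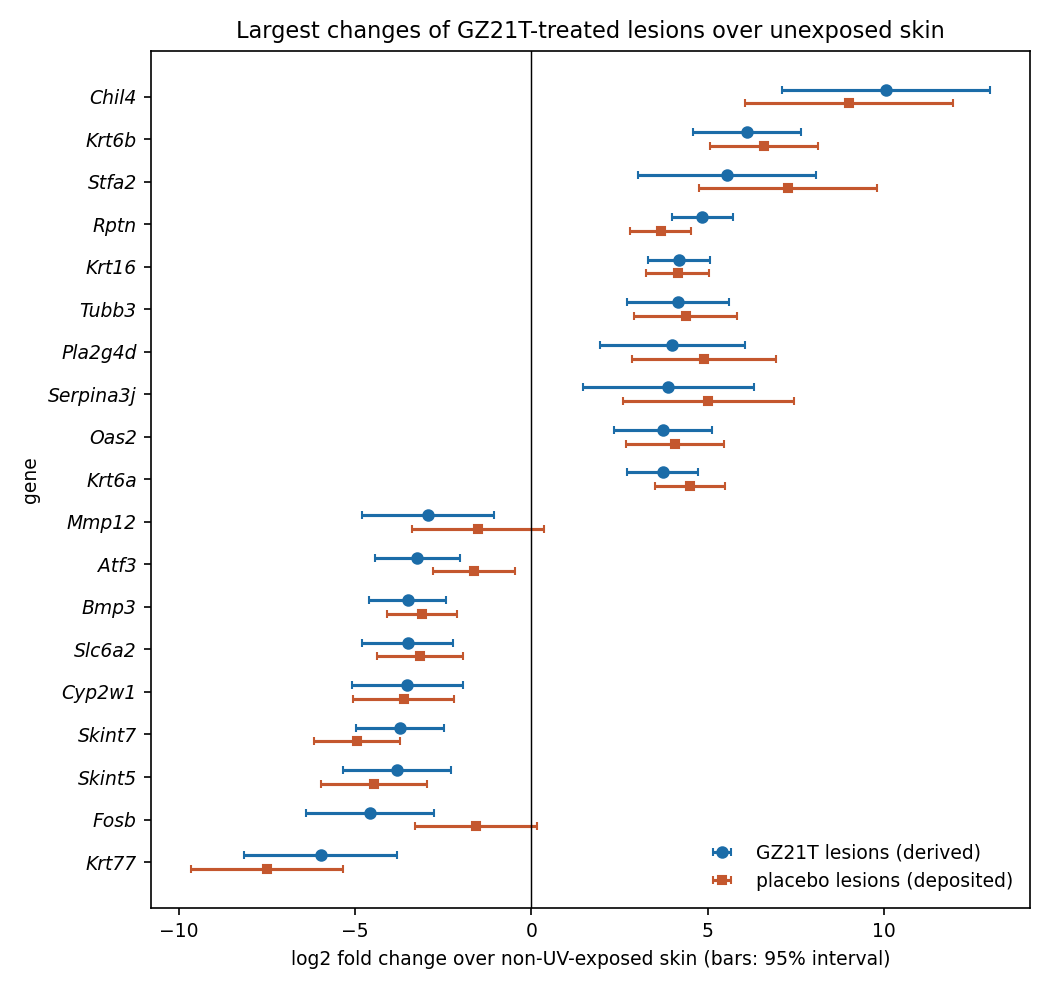
Log2 fold change over non-UV-exposed skin (x axis) of the 10 genes farthest above and of 9 of the 10 farthest below in GZ21T lesions (y axis), with 95% intervals as bars. Circles are GZ21T lesions (derived) and squares are placebo lesions from the authors' deposited table; Fosb stands at -4.57 in GZ21T and -1.57 in placebo lesions.

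All 4 tested stress keratins rose in GZ21T lesions (2.58% over all genes), with a median log2 fold change of 3.95. Krt6a stood at 3.72 ± 0.51 (adjusted p = 2.0e-10) and Krt17 at 1.79 ± 0.28 (adjusted p = 5.0e-08). Krt6a and Krt6b are close copies, as are Serpinb3b, Chil4, Stfa2 and Stfa3 with their relatives, so their shares of the reads are uncertain. For placebo lesions the authors' deposited table gives these genes a median of 4.32. In the authors' deposited table of GZ21T over placebo lesions, Krt16 differed by 0.03 (95% interval -0.85 to 0.92; adjusted p = 0.98) and Krt6a by -0.78 (-1.77 to 0.22). None of the 4 passed that test (3.61% over all genes). The same stress keratins were high at the other irradiated sites, with a median of 3.19 in nonlesional skin in the authors' deposited table and 3.39 in perilesional skin.

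Of 13 tested alarmins and antimicrobial proteins, small defence proteins released by keratinocytes and neutrophils, 3 rose and 1 fell (2.58% and 2.01% over all genes). The cysteine protease inhibitors Stfa2 (5.54 ± 1.29, adjusted p = 0.0014) and Stfa3 (2.06 ± 0.26, adjusted p = 2.5e-12) rose with Chil4. Il1rn, the interleukin 1 receptor antagonist, fell by 0.96 on the log2 scale (SE 0.23, adjusted p = 0.0029). The calprotectin subunits S100a8 and S100a9 did not pass, at 1.51 ± 1.39 (adjusted p = 0.70) and 1.47 ± 1.23 (adjusted p = 0.66). In placebo lesions the authors' deposited table puts S100a8 at 4.69 and S100a9 at 4.62. By the authors' deposited table of the lesions S100a8 differed by -3.19 (adjusted p = 0.14) and S100a9 by -3.15 (adjusted p = 0.099), both short of the threshold. Tslp, a keratinocyte cytokine that drives type 2 immunity, stood at 0.76 ± 0.90 (adjusted p = 0.79) in GZ21T lesions. The authors' deposited tables give Tslp 4.71 in placebo lesions and a difference of -3.95 (-5.69 to -2.21; adjusted p = 0.0055) under GZ21T.

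Cornified envelope genes rose for 10 of 33 tested members and fell for none, against 2.58% higher over all genes, with a median of 0.99. Repetin, Rptn, on chromosome 3 from 93393699 to 93399442 (plus strand), had the smallest adjusted p of the group at 4.84 ± 0.44 (adjusted p = 6.5e-24). The small proline-rich proteins Sprr1b (3.60 ± 0.59) and Sprr1a (3.19 ± 0.60) also rose. Sprr2a1 and Sprr2a2 carry identical values of 5.43 ± 0.83, so each of these near-identical genes is uncertain. In placebo lesions the authors' deposited table called 10 cornified envelope genes higher and 5 lower, against 12.1% and 10.4% over all genes, with a median of -0.12. Under GZ21T 13 members were higher than in placebo lesions (1.31% over all genes) and none lower (2.29%), with a median of 1.34, in the authors' deposited table. Under the SE of summed squares 5 members rose over unexposed skin.

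The envelope list held families with unlike values. Members of the Lce1 and Sprr families were set apart after their values were seen. The 14 tested Lce1 genes are late cornified envelope genes that lie together on chromosome 3. They had a median of 1.03 in GZ21T lesions, with 5 higher (2.58% over all genes) and none lower. In placebo lesions the authors' deposited table gives the Lce1 genes a median of -0.63, with none higher and 1 lower. The authors' deposited table of the 2 kinds of lesion called 11 of these 14 Lce1 genes higher under GZ21T (1.31% over all genes). Lce1h, on chromosome 3 from 92763215 to 92765065 (minus strand), stood at 1.54 ± 0.34 (adjusted p = 0.00075) in GZ21T lesions. The authors' deposited tables give Lce1h -0.04 in placebo lesions and a difference of 1.58 (0.93 to 2.24; adjusted p = 0.0027). In nonlesional skin Lce1h stood at 1.55 in the authors' deposited table and in perilesional skin at 1.84. Lce1g, Lce1f and Lce1e stood at 1.52, 1.29 and 1.22 in GZ21T lesions, and at 0.15, -0.12 and -0.11 in placebo lesions in the authors' deposited table. The 8 tested Sprr genes had a median of 2.90 in GZ21T lesions with 4 higher, against 4.80 with 8 higher in placebo lesions in the authors' deposited table. None of these Sprr genes passed the authors' deposited test of the lesions against each other (3.61% over all genes). Members of both families are close copies, so reads that fit several of them could have been shared out.

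The pattern TGANTCA, where N is any base, is a looser form of the AP-1 site. It was searched on both strands in the 250 bases before the start of each gene, from RefSeq on GRCm38.p6. It lay in 10 of 29 tested envelope genes with such a sequence (34.5%), 3 of them among the 9 that rose (33.3%), and in 5.91% of the 8229 tested genes with one. The windows of 3 envelope genes that rose are printed to show a motif that many members hold, with the match in capitals. They are Rptn (chr3:93393449-93393698, plus strand), Sprr1b (chr3:92438780-92439029, minus strand) and Sprr1a (chr3:92485882-92486131, minus strand), each 5′ to 3′. A match describes the letters only.
Rptn: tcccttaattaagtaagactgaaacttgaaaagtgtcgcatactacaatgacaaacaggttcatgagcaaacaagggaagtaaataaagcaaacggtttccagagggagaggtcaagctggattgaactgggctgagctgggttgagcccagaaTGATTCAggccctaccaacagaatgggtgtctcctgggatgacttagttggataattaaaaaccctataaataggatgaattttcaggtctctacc
Sprr1b: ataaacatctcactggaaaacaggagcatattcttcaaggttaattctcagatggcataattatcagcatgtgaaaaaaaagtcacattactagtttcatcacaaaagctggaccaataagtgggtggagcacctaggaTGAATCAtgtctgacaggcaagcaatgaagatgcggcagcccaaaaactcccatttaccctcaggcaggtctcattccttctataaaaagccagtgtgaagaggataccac
Sprr1a: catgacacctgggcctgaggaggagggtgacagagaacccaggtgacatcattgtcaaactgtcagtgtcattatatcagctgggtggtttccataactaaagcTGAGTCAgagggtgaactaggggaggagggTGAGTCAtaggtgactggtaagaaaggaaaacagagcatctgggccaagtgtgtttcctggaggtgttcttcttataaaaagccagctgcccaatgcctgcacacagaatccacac

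Suprabasal differentiation genes, which act below the envelope, rose for 5 of 20 tested members (2.58% over all genes) and fell for 1, with a median of 0.35. The desmosomal cadherins Dsc1 (1.65 ± 0.28) and Dsg1b (1.17) rose. Casp14, a protease of the cornifying cell, stood at 1.14 (adjusted p = 0.012). Casp14 was at 0.09 in placebo lesions and differed by 1.05 between the lesions (adjusted p = 0.041) in the authors' deposited tables. The main suprabasal keratin Krt1 stood at 1.09 ± 0.38 (adjusted p = 0.070), just short of the threshold. The authors' deposited tables give Krt1 -0.33 in placebo lesions, and put GZ21T lesions 1.42 above them (0.68 to 2.16; adjusted p = 0.0195). Its partner Krt10 stood at 0.51 (adjusted p = 0.77). Under the SE of summed squares 1 of the suprabasal genes rose.

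Kallikreins, the serine proteases that cut the bonds between cornified cells, were listed with their inhibitors. Of 9 tested members of that list 5 rose (2.58% over all genes), all of them kallikreins, and none fell. The inhibitor Spink5, among the 9, stood at 0.20 (adjusted p = 0.83). Klk6 stood at 2.94 ± 0.38 (adjusted p = 1.6e-11), Klk13 at 3.19, Klk10 at 1.77 and Klk9 at 1.59. Placebo lesions also had 5 of the 9 higher (12.1% over all genes) in the authors' deposited table. The SE of summed squares left 1 kallikrein that rose. Of the basal keratinocyte and hemidesmosome genes 2 of 16 fell (2.01% over all genes) and none rose. Krt15, a keratin of basal and stem cells, fell by 1.49 on the log2 scale (SE 0.46, adjusted p = 0.034), and the hemidesmosome linker Dst by 1.03. The basal keratins Krt5 (-0.12) and Krt14 (0.70) did not pass. Barrier ceramide and lipoxygenase genes rose for 2 of 21 (2.58% over all genes). The epidermal markers Krt5, Krt14, Krt1 and Krt10 were all measured in these skin libraries.

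Interferon-induced genes rose for 21 of 34 tested members and fell for none, against 2.58% higher among all genes, and 33 of the 34 values were positive. The median was 1.56. The T cell attracting chemokine Cxcl9 stood at 3.44 ± 0.45 (adjusted p = 3.1e-11), the antiviral Oasl2 at 2.65 ± 0.44 (adjusted p = 4.9e-07) and the GTPase Igtp at 2.22 ± 0.40 (adjusted p = 8.6e-06). Isg15, a ubiquitin-like protein, stood at 2.04 ± 0.68 and missed the threshold (adjusted p = 0.056). The SE of summed squares left 7 of the interferon-induced genes.

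Placebo lesions had interferon values close to these, with 24 of 34 higher (12.1% over all genes) and a median of 1.66 in the authors' deposited table. Between the lesions none of the 34 passed in the authors' deposited table (3.61% over all genes), 17 values being positive and 17 negative with a median of -0.01. The authors' deposited table puts that difference at -0.28 (-1.0 to 0.45) for Cxcl9 and 0.02 (-0.73 to 0.76) for Igtp. For 12 of the 34 the interval lay within 1 log2 unit on either side of 0 in the authors' deposited table. The median was 1.36 in nonlesional skin in the authors' deposited table and 1.78 in perilesional skin.

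The core of the interferon-stimulated response element, GAAA followed by any 2 bases and again GAAA, was searched on both strands of the same 250 bases. It lay in 12 of 20 tested interferon-induced genes with such a sequence (60% of them), in 9 of the 13 that rose (69.2%) and in 2.99% of the 8229 tested genes. The windows of 4 genes that rose are printed since many members share this letter string. They are Igtp (chr11:58199306-58199555, plus strand), Oas3 (chr5:120777660-120777909, minus strand), Oas1g (chr5:120887614-120887863, minus strand) and Gbp7 (chr3:142530086-142530335, plus strand). The match is in capitals, with 2 overlapping matches in Oas1g and a match of the opposite strand in Gbp7.
Igtp: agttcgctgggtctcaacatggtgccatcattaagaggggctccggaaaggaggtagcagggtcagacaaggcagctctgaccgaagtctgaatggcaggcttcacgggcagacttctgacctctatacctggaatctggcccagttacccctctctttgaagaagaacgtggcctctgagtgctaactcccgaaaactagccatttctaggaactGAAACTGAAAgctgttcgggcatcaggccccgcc
Oas3: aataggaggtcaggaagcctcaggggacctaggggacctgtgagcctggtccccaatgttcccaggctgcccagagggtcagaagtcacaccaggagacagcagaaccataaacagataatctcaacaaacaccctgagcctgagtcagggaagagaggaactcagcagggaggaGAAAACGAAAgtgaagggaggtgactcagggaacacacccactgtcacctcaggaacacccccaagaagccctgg
Oas1g: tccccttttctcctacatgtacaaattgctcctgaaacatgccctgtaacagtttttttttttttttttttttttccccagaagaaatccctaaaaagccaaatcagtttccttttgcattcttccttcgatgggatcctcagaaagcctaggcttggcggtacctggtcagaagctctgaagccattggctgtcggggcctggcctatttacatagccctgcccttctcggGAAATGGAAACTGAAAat
Gbp7: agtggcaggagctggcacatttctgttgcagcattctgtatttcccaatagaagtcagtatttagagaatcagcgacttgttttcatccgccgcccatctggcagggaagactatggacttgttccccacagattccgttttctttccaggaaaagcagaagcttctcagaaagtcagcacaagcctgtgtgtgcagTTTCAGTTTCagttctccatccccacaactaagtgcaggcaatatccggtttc

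Antigen presentation genes rose for 7 of 22 tested members (2.58% over all genes) and fell for none, with a median of 0.61. Those with the smallest adjusted p belong to the class II pathway, which shows peptides to helper T cells. They were H2-Ab1 (2.27 ± 0.46, adjusted p = 0.00013), the class II activator Ciita (2.09), the invariant chain Cd74 (2.01) and H2-Eb1 (1.84). Under the SE of summed squares none of the antigen presentation genes rose. None of the 22 passed the authors' deposited test of GZ21T against placebo lesions (3.61% over all genes).

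Immune cell markers were measured for few genes and moved in both directions. Beside each count below stand 2.58% called higher and 2.01% called lower over all genes. Of 4 tested T and NK cell markers, Icos, a costimulatory receptor, rose at 3.04 ± 0.58 (adjusted p = 3.3e-05), while Cd3e, a part of the T cell receptor complex, stood at -0.66 (adjusted p = 0.55). Cd207, the langerin of Langerhans cells, rose at 2.26 ± 0.60 (adjusted p = 0.0077), 1 of 8 markers of Langerhans and dendritic cells. Of 18 macrophage markers, with a median of -0.04, none rose and 2 fell (2.01% over all genes). Those 2 were the elastase Mmp12 at -2.93 ± 0.96 (adjusted p = 0.048) and the fungal receptor Clec7a at -2.68 ± 0.76 (adjusted p = 0.015). The chemokines Ccl8 (3.16) and Ccl22 (1.70) and the cytokine Lif (1.78) rose, 3 of the 11 tested chemokines and cytokines (2.58% over all genes). Of 4 tested neutrophil markers, all positive, Cxcr2, a chemokine receptor, rose at 1.82 ± 0.50 (adjusted p = 0.012). The median of these 4, which include S100a8 and S100a9, was 1.66, against 4.61 in placebo lesions in the authors' deposited table. Over the 12 neutrophil markers with a fold change in GZ21T lesions, tested or not, it was -0.34. Of the 2 tested red blood cell markers Hba-a2 was called lower, on a log2 value over 15 in size with an SE of 5.9. That value is not read as the size of a measured fall. Hba-a1 stood at 1.49 (adjusted p = 0.73). The authors' deposited tables put both genes below placebo lesions under GZ21T, Hba-a2 again with a value over 15 in size and Hba-a1 by -5.33 (adjusted p = 0.023). The part of these cell types in the interferon and class II values was not tested. None of the tested B cell and mast cell markers passed, and only 1 of each list could be tested.

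Cholesterol synthesis genes rose for 10 of 22 tested members (2.58% over all genes) and fell for none, with 21 positive values and a median of 0.76. The changes were of moderate size. Ebp, a sterol isomerase, stood at 1.17 ± 0.25 (adjusted p = 0.00028), Idi1, an isoprenoid isomerase, at 1.28 ± 0.30 and the methyl sterol oxidase Msmo1 at 1.18 ± 0.26. In placebo lesions 16 of the 22 were higher (12.1% over all genes), with a median of 1.02, in the authors' deposited table. None of the 22 passed the authors' deposited test of the lesions against each other (3.61% over all genes). There 17 values were below 0, beside a median of -0.06 over all genes in the authors' deposited table. No cholesterol gene passed with the SE of summed squares, and with the SE rescaled to the spread of the genes 4 did. Of 23 sebaceous gland and fatty acid synthesis genes 1 rose (2.58% over all genes), the fatty acid elongase Elovl7 at 1.39 ± 0.23 (adjusted p = 1.1e-06). Fasn, the fatty acid synthase, stood at 0.25 and Scd1, a desaturase marking sebaceous glands, at 0.84, and neither passed.

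**Figure D2:**
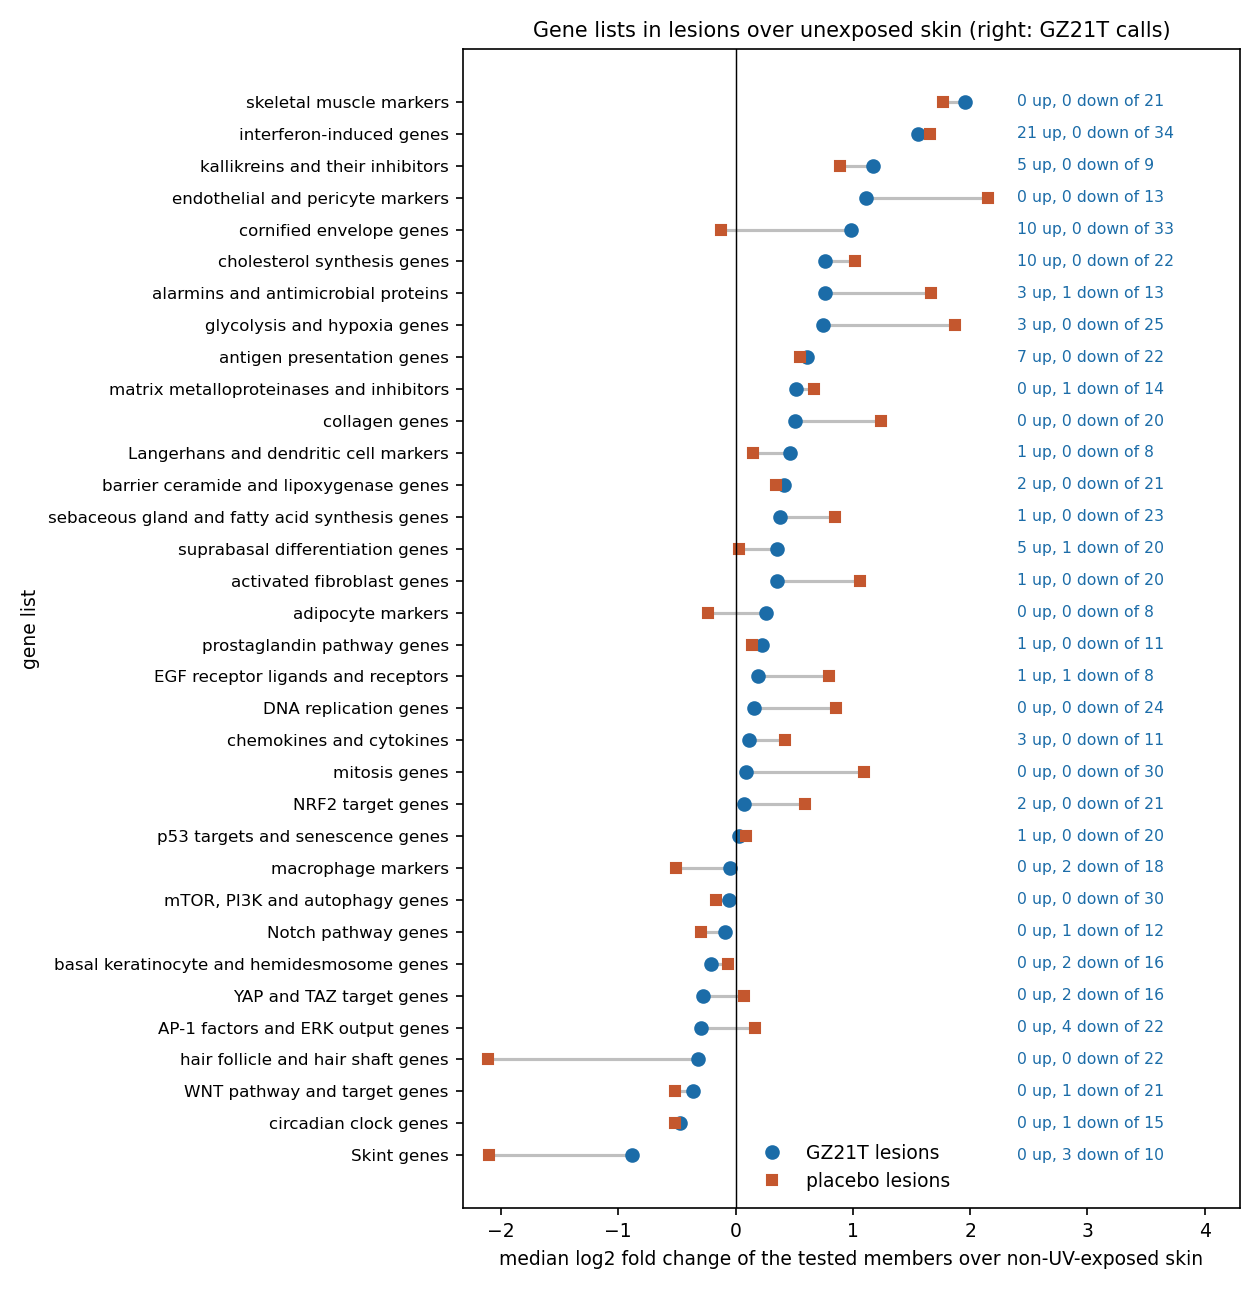
Median log2 fold change over non-UV-exposed skin (x axis) of the tested members of each gene list with 8 or more tested members (y axis), as circles for GZ21T lesions and squares for placebo lesions. The text on the right counts members that passed the test in GZ21T lesions, with 21 up of 34 for interferon-induced genes and 0 up of 30 for mitosis genes.

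Mitosis genes had a median of 0.09 in GZ21T lesions. Of 30 tested members none rose or fell, a share near the 4.59% called over all genes. Mki67, a marker of dividing cells, stood at 0.15 (adjusted p = 0.89) and the mitotic kinase Plk1 at 0.73 (adjusted p = 0.42). Placebo lesions had 20 of the 30 higher, against 12.1% of all genes, and a median of 1.09 in the authors' deposited table. Between the lesions 29 of the 30 mitosis values were below 0 under GZ21T, beside a median of -0.06 over all genes, in the authors' deposited table. Of the 30, 4 passed (2.29% lower over all genes). These were Birc5, an inhibitor of apoptosis at the spindle (-1.31, adjusted p = 0.030), the ubiquitin enzyme Ube2c (-1.40), cyclin Ccnb2 (-1.21) and the spindle motor Kif11 (-1.02), all in the authors' deposited table. Nonlesional skin had a median of 0.50 in the authors' deposited table, and perilesional skin 0.71.

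DNA replication genes gave no call in GZ21T lesions (4.59% over all genes), with 24 tested and a median of 0.16. The authors' deposited table called 9 of the 24 higher in placebo lesions (12.1% over all genes). Among p53 targets and senescence genes 1 of 20 rose (2.58% over all genes), Cdkn2a, which encodes the cell cycle inhibitors p16 and p19. It stood at 2.75 ± 0.61 (adjusted p = 0.00080) in GZ21T lesions. Cdkn2a was, by the authors' deposited tables, at 4.07 in placebo lesions and differed by -1.32 (-2.30 to -0.34; adjusted p = 0.093). Cdkn1a (-0.08) and Trp53 (0.03) did not pass.

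Glycolysis and hypoxia genes rose for 3 of 25 tested members (2.58% over all genes), with a median of 0.75. They were Vegfa, the vascular growth factor (1.57 ± 0.38, adjusted p = 0.0024), the glucose transporter Slc2a1 (1.19 ± 0.38, adjusted p = 0.0445) and the carbonic anhydrase Car12 (1.00). None of these 3 passed with the SE of summed squares. In placebo lesions 18 of the 25 were higher (12.1% over all genes) and the median was 1.87 in the authors' deposited table. The authors' deposited table of the lesions against each other put 23 of the 25 below 0 under GZ21T, of which 4 passed (2.29% lower over all genes). Among them Egln3, an oxygen-sensing hydroxylase, stood at 0.65 (adjusted p = 0.48) over unexposed skin in GZ21T lesions. The authors' deposited tables give Egln3 2.81 in placebo lesions and a difference of -2.17 (adjusted p = 0.00064).

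**Figure D3:**
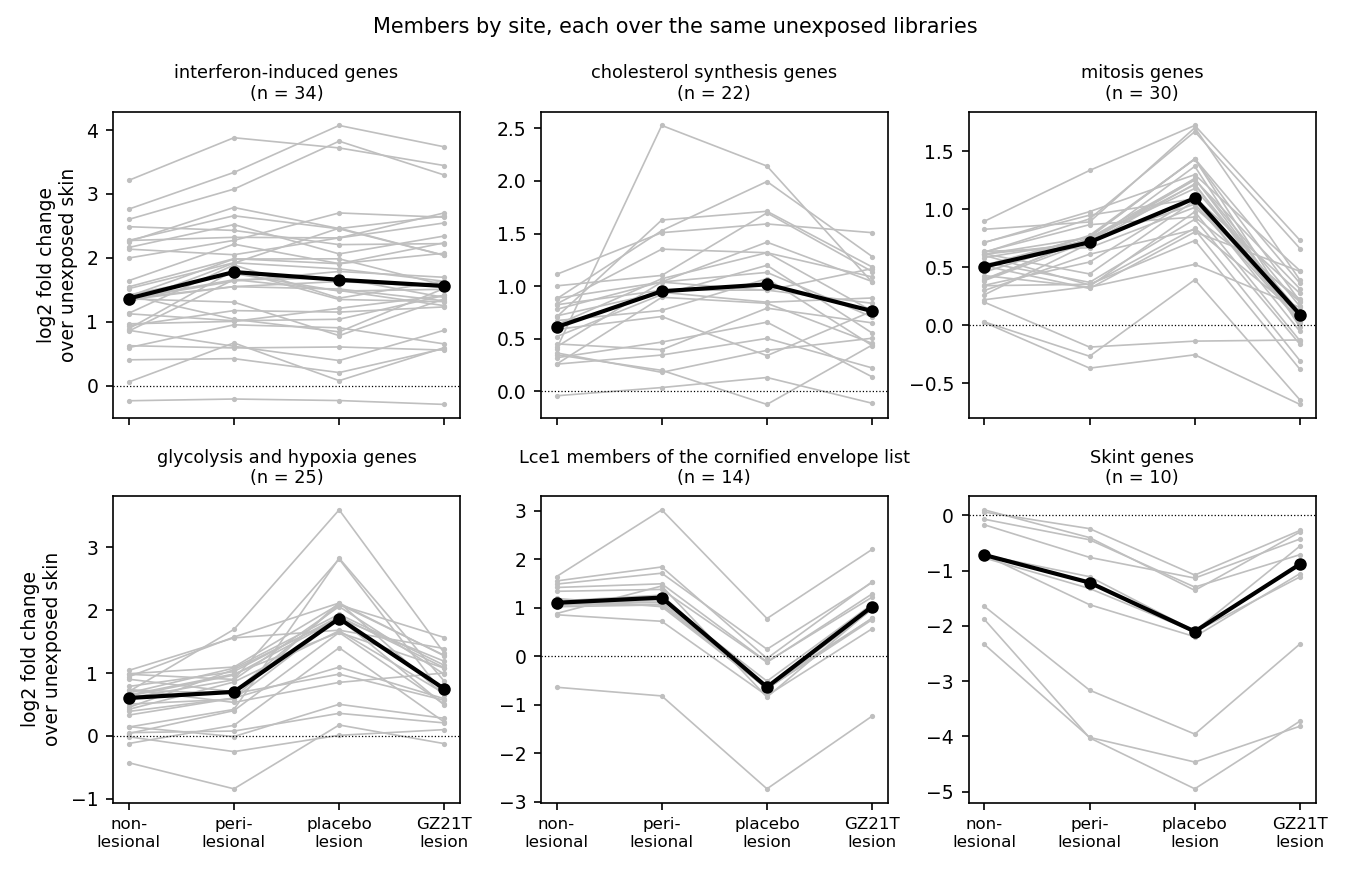
Log2 fold change over the same non-UV-exposed libraries (y axis) at 4 skin sites (x axis) for 6 gene groups, 1 grey line per gene joining its values and the black line the median; the sites are no time course. Interferon-induced genes sit near one level at all sites, with medians from 1.36 to 1.78, while mitosis genes have a median of 1.09 in placebo and 0.09 in GZ21T lesions.

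AP-1 factors and ERK output genes, which report growth factor signalling, fell for 4 of 22 tested members and rose for none, against 2.01% lower over all genes. Fosb fell by 4.57 on the log2 scale (SE 0.93, adjusted p = 0.00013) and Atf3, a stress-induced factor, by 3.23 (SE 0.62, adjusted p = 4.3e-05). The ERK inhibitors Spred2 (-1.12) and Spred1 (-0.72) fell as well. The authors' deposited tables give Fosb -1.57 in placebo lesions (adjusted p = 0.21) and a difference between the lesions of -3.00 (-4.83 to -1.18; adjusted p = 0.0425). It stood at -3.98 in nonlesional skin in the authors' deposited table. Fosl1, another Fos family member, stood at -0.90 (adjusted p = 0.66) in GZ21T lesions. The authors' deposited tables give Fosl1 1.57 in placebo lesions and a difference of -2.46 (adjusted p = 0.041). Of the AP-1 and ERK genes 1 fell with the SE of summed squares.

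Ligands of the epidermal growth factor receptor moved apart. Epgn, epigen, fell by 1.72 on the log2 scale (SE 0.48, adjusted p = 0.012), and Ereg, epiregulin, rose at 1.86 ± 0.53 (adjusted p = 0.016), while the receptor Egfr stood at -0.32 (adjusted p = 0.37). Epgn was, by the authors' deposited tables, at 0.66 in placebo lesions (adjusted p = 0.33) and differed by -2.37 (-3.30 to -1.44; adjusted p = 0.0014) between the lesions. Of 11 prostaglandin genes 1 rose (2.58% over all genes), the phospholipase Pla2g4b (1.67, adjusted p = 0.0275). The inducible cyclooxygenase Ptgs2 stood at 0.13 ± 1.00 (adjusted p = 0.975). The authors' deposited tables give Ptgs2 3.66 in placebo lesions and a difference of -3.53 (-5.50 to -1.56; adjusted p = 0.029).

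Skint genes, a family of genes of mouse keratinocytes, fell for 3 of 10 tested members (2.01% over all genes), and all 10 values were below 0, with a median of -0.88. Skint7 stood at -3.72 ± 0.64 (adjusted p = 1.9e-06), Skint5 at -3.81 ± 0.78 (adjusted p = 0.00017) and Skint6 at -2.33 ± 0.60 (adjusted p = 0.0059). Of the Skint genes 1 fell with the SE of summed squares. Placebo lesions had 9 of 10 lower (10.4% over all genes) and a median of -2.10 in the authors' deposited table. Between the lesions 1 Skint gene passed in the authors' deposited table (1.31% higher over all genes), Skint3, 1.06 higher under GZ21T (adjusted p = 0.041). The members are near copies, so reads may have been shared among them.

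Wnt7b, a WNT ligand of the epidermis, fell by 1.72 on the log2 scale (SE 0.38, adjusted p = 0.00062), the only one of 21 WNT genes that passed. The WNT target Axin2 stood at -1.05 (adjusted p = 0.062). In the Notch list 1 of 12 fell, the ligand Dll1 at -1.22, and in the YAP and TAZ list 2 of 16 fell, Ptpn14 (-1.40) and Crim1 (-0.69). The clock repressor Cry2 fell by 0.82, 1 of 15 clock genes. None of 30 mTOR, PI3K and autophagy genes passed. Beside 4.59% called over all genes, these counts are not read as a result about the lists. Slit1, a guidance ligand, was 1 of 5 Slit and Robo genes to rise (2.58% over all genes), at 3.31 ± 0.92 (adjusted p = 0.0125). Slit1 was, by the authors' deposited tables, at 6.82 in placebo lesions and differed by -3.52 (-5.02 to -2.01; adjusted p = 0.0036).

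In the dermis none of 20 collagen genes passed, with a median of 0.50 and Col1a1 at 0.95. Tnc, the matrix protein tenascin of healing skin, rose at 1.79 ± 0.26 (adjusted p = 2.3e-09), 1 of 20 activated fibroblast genes. Of 14 matrix metalloproteinases and inhibitors Mmp12 fell and none rose; Mmp3 stood at 0.32 and Mmp13 at 1.9 without passing. Endothelial and pericyte markers had a median of 1.11 with none of 13 called. The 21 tested skeletal muscle markers were all positive, between 1.44 and 3.15, with none called. Their median was 1.96, against 1.77 in placebo lesions in the authors' deposited table. Hair genes had none of 22 called. Of the Hox genes, which mark body position, none of 7 HoxA and HoxB genes and none of 5 HoxC and HoxD genes passed, with medians of 0.47 and -0.71. Hoxc8 stood at -1.13 (adjusted p = 0.15) in GZ21T lesions. The authors' deposited table puts Hoxc8 at -1.80 in placebo lesions (adjusted p = 0.00105). Beside 4.59% called over all genes, the counts called in these lists are not read as a result about the lists. The part of muscle, vessels or body site in the other values was not tested.

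Genes that passed both tests of GZ21T lesions, against unexposed skin and against placebo lesions, differed in their placebo values. One set had placebo values near 0 and GZ21T values above. It held Lce1h, Lce1g, Lce1f, Lce1e and Serpinb3b, a serine protease inhibitor of keratinocytes at 1.22 ± 0.26 (adjusted p = 0.00044). Serpinb3b was, by the authors' deposited tables, at -0.03 in placebo lesions and differed by 1.25 (0.74 to 1.76; adjusted p = 0.0024). Card9, an adaptor of antifungal receptors, was at 1.70 ± 0.42 (adjusted p = 0.0031), and at 0.15 in placebo lesions in the authors' deposited table. Nonlesional skin of placebo mice was also above unexposed skin in the authors' deposited table. It had Lce1g at 1.49, Lce1f at 1.34, Lce1e at 1.42 and Serpinb3b at 0.96, and Card9 at 0.92 without passing (adjusted p = 0.38). Another set was above unexposed skin in both kinds of lesion and lower under GZ21T. It held Slit1, Has3, which makes hyaluronan, and Pi15. Has3 stood at 2.63 ± 0.66 (adjusted p = 0.0043), and at 4.90 in placebo lesions in the authors' deposited table. Pi15, a secreted protease inhibitor, stood at 2.30 ± 0.46 (adjusted p = 0.00011). The authors' deposited tables give Pi15 4.38 in placebo lesions and a difference of -2.08 (-2.96 to -1.21; adjusted p = 0.0030). In nonlesional skin Slit1 stood at 3.44, Has3 at 2.26 and Pi15 at 2.73 in the authors' deposited table. Genes were named by passing 2 tests that share the GZ21T libraries, so one test is no support for the other.

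**Figure D4:**
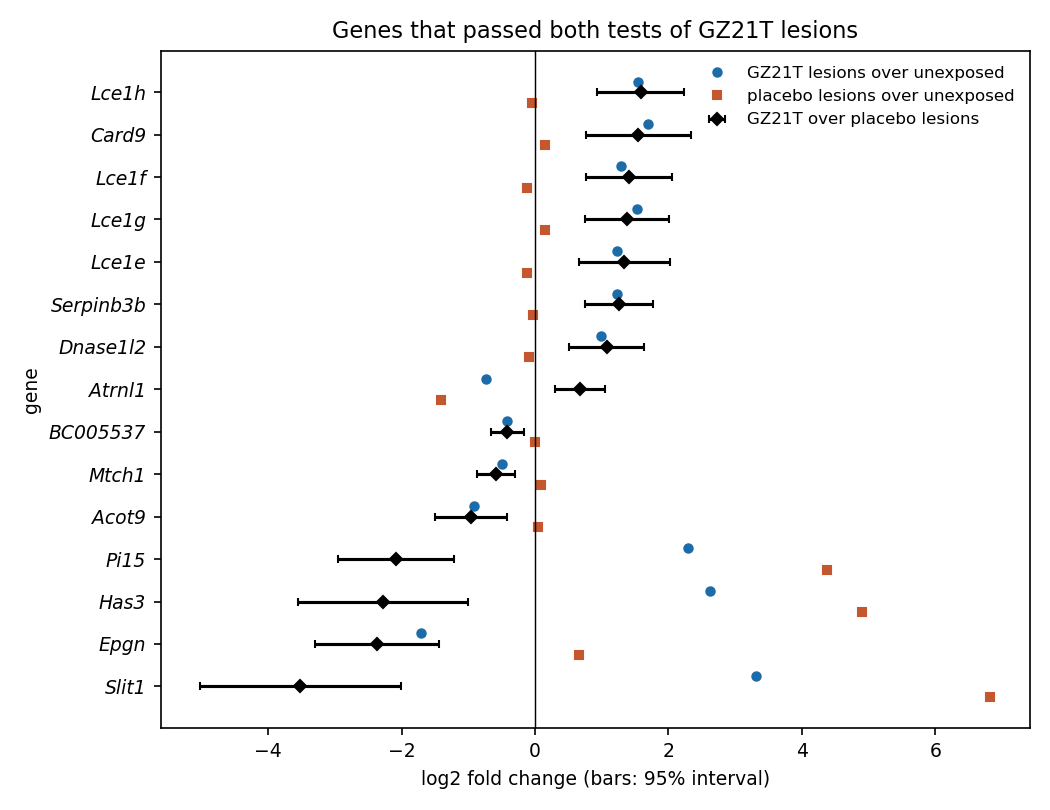
Log2 fold change (x axis) of the genes named for passing both tests (y axis): circles for GZ21T lesions and squares for placebo lesions over unexposed skin, and diamonds with 95% intervals for GZ21T over placebo lesions from the authors' deposited table. Lce1h stands at 1.54 in GZ21T and -0.04 in placebo lesions, and Slit1 at 3.31 and 6.82.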

How the data were processed

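RNA-seq of mouse skin was compared as fold changes. Per the submitters' processing notes, Trim Galore was used on the reads, the build was GRCm38 (mm10) and DESeq2 made the tests. Other steps and all versions: not given in the sources used here. What the authors deposited is 4 tables, each with a log2 fold change, a Wald statistic (a score, the fold change over its SE), and a p-value and adjusted p-value, per the file headers. They hold no counts, so depth is unknown. One table's file name and header disagree, and the header was used. Among 1423 genes whose nonlesional over unexposed value is exactly 0, it has 704 positive and 0 negative values. That alone cannot tell back from nonlesional skin as its reference. Among 1195 genes whose perilesional over nonlesional value is exactly 0, it has 474 positive and 271 negative values. With perilesional or nonlesional skin as reference no negative values would be due there, so the header's back skin was kept.

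The comparison was derived from 2 tables as stated in the results. Its Wald statistic was the fold change over the larger SE, its p-value the two-sided normal tail, with Benjamini-Hochberg adjustment over 10899 genes. The 2 SEs had a median ratio of 1.0. An SE solved from all 4 tables was 0.998 times the larger one at the median. Perilesional values were derived likewise. Placebo values and their intervals are the authors' or follow from their SEs. On simulated data with 10899 genes, 200 of them changed, the test recovered 52% at a log2 change of 1 and 92.5% at 2, with 8 false calls at each. The simulated spread was the one from which the SEs were computed, so it cannot show whether the SE is right for these libraries.

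The genes and the 45 lists were chosen with earlier results of these data known, so a list's count is a description and not a test. Named genes are the 10 largest and 10 smallest called changes, up to 4 members per list with the smallest adjusted p, 39 fixed genes (36 tested), and the 8 genes per direction with the smallest adjusted p that passed both tests; a few of them are not reported here. Log2 fold changes over 15 in size were not given. 25 symbols turned into dates were removed, and 22683 symbols (94.4%) matched 1 gene of GENCODE release 21. Promoters came from RefSeq. Python 3.11.15, numpy 2.4.6, pandas 2.3.3, scipy 1.17.1 and matplotlib 3.10.9 were used. Alternatives changed the SE, the centring, the genes tested and the threshold.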

Additional observations from a re-analysis of the deposited data

Results flagged for a closer look

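The genes below are those named genes whose difference between GZ21T and placebo lesions passed the threshold in the authors' deposited table of the 2 kinds of lesion. Some of them were named by this same test. It called 393 of the tested genes, so the genes below are not a full account of the difference. All values are log2 differences of GZ21T minus placebo lesions from the authors' deposited table. Lower under GZ21T were Tslp (-3.95), Ptgs2 (-3.53), Slit1 (-3.52), Fosb (-3.00), Fosl1 (-2.46), Epgn (-2.37), Has3 (-2.27), Pi15 (-2.08), Acot9 (-0.96), Mtch1 (-0.58) and BC005537 (-0.42) in the authors' deposited table. Higher under GZ21T in the authors' deposited table were Lce1h (1.58), Card9 (1.55), Krt1 (1.42), Lce1f (1.41), Lce1g (1.38), Lce1e (1.34), Serpinb3b (1.25), Dnase1l2 (1.07), Atrnl1 (0.67) and G6pdx (0.42).

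Among the smaller ones, Atrnl1, an attractin-like membrane protein, stood at -0.74 over unexposed skin in GZ21T lesions and at -1.42 in placebo lesions in the authors' deposited table. G6pdx, which feeds the pentose phosphate pathway, stood at 0.47 ± 0.13 in GZ21T lesions (adjusted p = 0.012) and at 0.05 in placebo lesions in the authors' deposited table.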

How the results depend on the processing

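The count of 500 changed genes (281 higher, 219 lower) depended most on the SE. It was 66 (53 higher, 13 lower) with the root of the sum of the 2 squared SEs, 141 (107 and 34) with a null spread estimated over genes, and 263 (176 and 87) at an adjusted p under 0.01. It stayed within 1.5 times of 500 with the smaller SE (573), the root mean square (533), the solved SE (548), centring on the median (489), all genes with a fold change (467) and a log2 fold change over 1 as well (334), where 222 were higher and 112 lower. The authors' deposited table of placebo lesions over unexposed skin called 2785 genes in all, and 11 with that null spread. The authors' deposited table of the 2 kinds of lesion called 393 with the authors' DESeq2 adjustment, 209 adjusted over all its genes, and 0 with that null spread, with 2804 at an unadjusted p under 0.05. The cause of these shifts was not tested. Of 116 named genes tested, 63 lost their call with the root of the sum of squares and 45 with the null spread. The 116 include fixed genes that had no call to lose. No paired analysis was possible because the tables hold no values per library, and leaving out libraries was not run for the same reason.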

Other observations

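Of the 500 genes that changed, 396 belong to none of the lists; those named here were chosen after their values were seen. Above unexposed skin stood Gsdmc, a gasdermin of keratinocytes (2.89 ± 0.35, adjusted p = 7.2e-13), Aqp3, the water and glycerol channel of the epidermis (2.38 ± 0.31), Aqp9, a related channel (2.67), Fabp5, the epidermal fatty acid binding protein (2.84), and Cemip, which takes part in breaking down hyaluronan (3.30 ± 0.47). Icosl, the ligand of Icos, rose at 1.63. Gsdmc stood at 2.72 in placebo lesions in the authors' deposited table. Lower were Ipmk, an inositol phosphate kinase (-2.0 ± 0.27, adjusted p = 1.6e-10), the cell cycle kinase Wee1 (-1.47), the NF-kappa B inhibitor Tnfaip3 (-1.36), the DNA methyltransferase Dnmt3a (-0.68) and Eppk1, an epidermal plakin (-1.41).

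Ribosomal protein genes were grouped after their values were seen. Of 73 tested Rps and Rpl genes none passed the test in GZ21T lesions (4.59% over all genes), with a median log2 fold change of -0.02 and values from -0.34 to 2.26. In placebo lesions 24 of these 73 ribosomal protein genes were higher (12.1% over all genes), with a median of 0.57, in the authors' deposited table. Between the lesions 7 of the 73 were lower under GZ21T (2.29% over all genes) and none higher (1.31%) in the authors' deposited table. Of 245 tested zinc finger genes of the Zfp family 1 rose and 6 fell in GZ21T lesions, against 2.58% and 2.01% over all genes, with a median of -0.21. In placebo lesions 1 Zfp gene was higher and 51 lower, against 12.1% and 10.4% over all genes, in the authors' deposited table.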
